A study of Mus musculus with 8 samples.

Results

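The comparison described here is the effect of IUB288, a glucagon receptor agonist, against vehicle in liver of mice labelled Fxr KO. It rests on 4 of the 8 liver samples in the study, 2 KO mice given IUB288 and 2 KO mice given vehicle, pooled by the authors into 1 FPKM value (fragments per kilobase of transcript, scaled to the mapped fragments) per group. Of 26682 loci listed in the authors' table, 13822 were tested by Cuffdiff and are the members. A further ranking kept the 10553 of them that carried a gene symbol and reached 1 FPKM in either group; the nearest loci on either side of that limit were Gja1, at 1.00032 FPKM in its higher group, and Recql4, at 0.999953 FPKM.

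The design of the study set Fxr-floxed mice against wild-type controls, each with IUB288 or vehicle, 2 mice per group, all on a C57Bl/6J background. The mice had fasted for 2 h, and the labels give a high-fat or a chow diet without saying which mouse had which, so diet and treatment cannot be told apart. The sources used here do not give dose, duration, sex, age, the deleted exons, the recombinase that acted on the floxed allele or the tissue of the deletion. With a single pooled value per group there is no spread between mice to print, and sequencing depth is unknown.

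Glucagon acts on hepatocytes through a Gs-coupled receptor that raises cyclic AMP, activates protein kinase A and phosphorylates CREB, a factor that binds the cAMP response element in promoters such as that of Pck1. In liver it is known for raising glucose output and for driving amino acid breakdown and urea production, and for restraining lipid synthesis. Fxr, encoded by Nr1h4, is a nuclear receptor for bile acids that represses their synthesis and induces their export.

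Nr1h4, the targeted gene, was present at 36.8 FPKM under vehicle and 27.1 FPKM under IUB288 in KO (mm10 chr10:89453976-89533648), and at 49.3 and 40.3 FPKM in the mice labelled WT. These are values over the whole gene, and they do not check the deletion. The KO and WT tables were scaled separately, so their levels are set side by side without a test. Gcgr, the glucagon receptor, was at 117 FPKM under vehicle and 113 FPKM under IUB288 in KO.

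Throughout, a gene is said to have risen or fallen where its q, the adjusted p-value in the authors' deposited table, was under 0.05. Log2 values are those of IUB288 over vehicle FPKM, and a value after ± is the standard error implied by the deposited test statistic. Where no q is printed for a gene that rose or fell, it was 0.00189 in KO, the smallest q in the authors' deposited table. Where a list has none called in a direction at q under 0.05 by Cuffdiff, none passed with a normal p from the test statistic either, and none had an unadjusted p under 0.05 unless a number is given.

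By this rule 761 of the 13822 loci were called, 5.51% of those tested: 433 were higher under IUB288 (3.13%) and 328 were lower (2.37%). Among the called loci with a value above 0 in both groups, the median log2 was 1.38 for those that were higher and -1.37 for those that were lower. Past 8-fold there were 38 higher and 25 lower loci. The median log2 over all tested loci was -0.00. Calls leaned upward at high expression: of 121 tested loci at 1000 FPKM or more, 20 were higher and 2 were lower, against 170 higher and 135 lower of 6549 loci between 1 and 10 FPKM. The share called in either direction rose with level too. It was 4.66% between 1 and 10 FPKM, 7.39% between 10 and 100, 15% between 100 and 1000 and 18.2% above. The median log2 rose with level, from -0.06 between 1 and 10 FPKM to 0.23 between 100 and 1000 FPKM and 0.50 above. Groups of abundant transcripts described below are to be read beside these shares and medians.

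**Figure D1:**
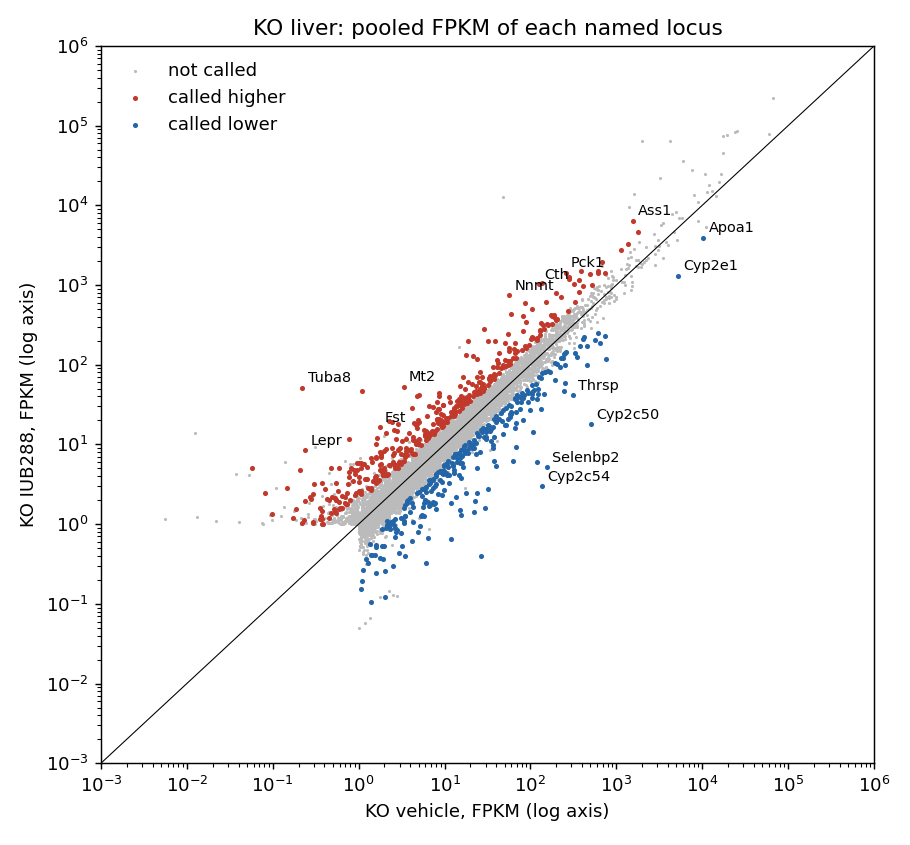
Pooled FPKM of 10542 named loci in KO liver, vehicle on the x axis and IUB288 on the y axis, both on log axes; each point is 1 locus, red where called higher, blue where called lower and grey where not called. The line marks equal levels, and Tuba8 and Lepr rose from below 1 FPKM under vehicle, while Cyp2c54, Cyp2c50 and Selenbp2 fell from above 100 FPKM.

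The 4 promoters below are shown because they belong to the cAMP-responsive and metallothionein genes that the next paragraphs turn on. They run from 250 bases before to 50 bases after the annotated start, 5′ to 3′ on the gene's strand, and come from RefSeq (GRCm38.p6). In Pck1 (chr2:173152823-173153122, + strand) and Nr4a1 (chr15:101266596-101266895, + strand) capitals mark the half-site of the cAMP response element, TGACG on either strand. In Mt1 (chr8:94178839-94179138, + strand) and Mt2 (chr8:94172368-94172667, + strand) capitals mark TGCNCNC on either strand. This is a loose form of the metal response element core, with any base at each N, so a match need not be such an element.
Pck1: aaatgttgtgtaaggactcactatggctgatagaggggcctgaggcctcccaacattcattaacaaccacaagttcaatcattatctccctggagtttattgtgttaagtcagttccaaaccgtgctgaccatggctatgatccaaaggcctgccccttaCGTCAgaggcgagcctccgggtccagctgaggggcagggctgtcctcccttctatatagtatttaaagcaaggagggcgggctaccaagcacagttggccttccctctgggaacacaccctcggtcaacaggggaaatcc
Nr4a1: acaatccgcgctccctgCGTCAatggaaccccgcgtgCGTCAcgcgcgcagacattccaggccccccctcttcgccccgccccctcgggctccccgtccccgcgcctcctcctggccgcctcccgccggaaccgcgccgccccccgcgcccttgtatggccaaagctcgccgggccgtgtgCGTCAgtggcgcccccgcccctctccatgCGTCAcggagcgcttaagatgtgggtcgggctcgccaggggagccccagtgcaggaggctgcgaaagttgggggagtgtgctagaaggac
Mt1: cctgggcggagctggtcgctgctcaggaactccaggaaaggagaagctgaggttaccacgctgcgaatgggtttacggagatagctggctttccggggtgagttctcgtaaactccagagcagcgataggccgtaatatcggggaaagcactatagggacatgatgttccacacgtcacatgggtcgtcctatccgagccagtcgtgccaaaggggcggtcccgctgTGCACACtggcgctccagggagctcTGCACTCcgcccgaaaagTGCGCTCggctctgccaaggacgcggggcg
Mt2: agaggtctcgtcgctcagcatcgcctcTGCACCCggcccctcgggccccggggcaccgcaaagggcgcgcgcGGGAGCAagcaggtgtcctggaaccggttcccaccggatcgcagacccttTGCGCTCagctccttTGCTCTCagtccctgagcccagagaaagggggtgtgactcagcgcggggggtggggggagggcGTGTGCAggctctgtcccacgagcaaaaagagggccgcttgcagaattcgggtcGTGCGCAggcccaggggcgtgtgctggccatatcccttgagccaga

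The Pck1 promoter held 1 half-site and that of Nr4a1 held 4, all on the strand opposite to the printed one. At least 1 half-site was found in 35.3% of the 9484 tested genes matched to a promoter, in 31.9% of those that were higher in KO and in 26.6% of those that were lower, and at least 4 were found in 0.58% of all tested. The full element TGACGTCA, which contains the half-site on both strands, was found in 15 of 307 matched genes that were higher in KO (4.89%), in 4 of 214 that were lower (1.87%) and in 3.53% of all tested genes. Mt1 held 3 and Mt2 held 6 matches to the loose metal response core, and 12.1% of tested genes held at least 3. A match is a description of these letters in this window only.

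Some of the genes that respond directly to cAMP were higher in KO liver under IUB288. Nr4a1, an orphan nuclear receptor induced within minutes of a cAMP rise, went from 0.373 to 3.3 FPKM (log2 3.15 ± 0.69). Sik1, a kinase that phosphorylates the CREB coactivators and so limits the response, went from 2.91 to 18.2 FPKM (2.65 ± 0.39). Ppargc1a, a coactivator of gluconeogenic and mitochondrial genes, went from 1.59 to 3.53 FPKM (1.15 ± 0.41) (the authors' deposited table gives q = 0.00879). Nfil3, a transcriptional repressor, rose from 8.41 to 27.9 FPKM (1.73 ± 0.38). In all, 8 of 29 tested members of the cAMP-responsive list rose, 1 fell and 20 were not called, with a median log2 of 0.43 over the members. The member that fell was Bcl6, a repressor of inflammatory and STAT5 target genes, from 9.24 to 2.29 FPKM (-2.01 ± 0.60). Of 31 tested components of glucagon receptor and cAMP signalling, 1 rose and none fell at q under 0.05 by Cuffdiff, with a list median of -0.00. That 1 was Pde10a, a phosphodiesterase that degrades cAMP and cGMP, which went from 0.042 to 0.756 FPKM (4.17 ± 0.85) (the authors' deposited table gives q = 0.00346).

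Gluconeogenic enzymes were higher in part. Pck1, the cytosolic phosphoenolpyruvate carboxykinase, rose from 256 to 1434 FPKM (2.49 ± 0.55), and Fbp1, the fructose bisphosphatase, from 500 to 1361 FPKM (1.45 ± 0.44). Got1, the cytosolic aspartate aminotransferase, rose from 58.8 to 430 FPKM (2.87 ± 0.41). G6pc, the catalytic subunit that releases free glucose, was at 92.3 FPKM under vehicle and 154 FPKM under IUB288, and did not pass (q = 0.0997 in the authors' deposited table). Slc2a2, the GLUT2 glucose transporter of hepatocytes, fell from 92.5 to 34.1 FPKM (-1.44 ± 0.40). Of 31 tested members of the gluconeogenesis list, 7 rose and 2 fell (median log2 0.38).

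The opposing pathway had 4 members lower and 1 higher of 30 tested (median -0.21). Gbe1, the glycogen branching enzyme, fell from 42.7 to 21 FPKM (-1.02 ± 0.36). Pfkfb3, which makes the glycolytic activator fructose 2,6-bisphosphate, fell from 1.86 to 0.528 FPKM (-1.82 ± 0.54). Pdk1, a kinase that inhibits pyruvate dehydrogenase, fell from 17.4 to 8.24 FPKM (the authors' deposited table gives q = 0.00493). Pfkfb2, the isoform that protein kinase A regulates in heart, was the member that rose, from 3.57 to 8.2 FPKM (the authors' deposited table gives q = 0.0122).

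Changes in amino acid genes extended from uptake to nitrogen disposal. Slc7a2, a cationic amino acid transporter of hepatocytes, rose from 50.1 to 187 FPKM (1.90 ± 0.44), and Slc1a5, a neutral amino acid exchanger, from 0.963 to 5.88 FPKM (2.61 ± 0.59). Slc25a22, a mitochondrial glutamate carrier, rose from 42.8 to 140 FPKM (1.71 ± 0.40). Slc3a1, the heavy chain of the cystine transporter, rose from 15.6 to 40.5 FPKM (the authors' deposited table gives q = 0.0276). These were the 4 that rose of 26 tested transporters, and none of the 26 fell at q under 0.05 by Cuffdiff. Slc38a3, an abundant glutamine transporter of the liver, was at 655 and 848 FPKM and did not pass. Slc38a4, of the same family, was at 277 and 387 FPKM and did not pass either.

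Gls2, the liver glutaminase that releases ammonia for urea synthesis, rose from 86.8 to 603 FPKM (2.80 ± 0.48). In the urea cycle, Ass1 rose from 1558 to 6408 FPKM (2.04 ± 0.66) and Asl from 153 to 613 FPKM (2.00 ± 0.41); they make and split argininosuccinate. Arg1, the arginase, rose from 617 to 1427 FPKM (the authors' deposited table gives q = 0.0132), while Cps1, the entry enzyme, was at 680 and 1712 FPKM and did not pass. Glul, the glutamine synthetase of pericentral hepatocytes, fell from 460 to 170 FPKM (-1.44 ± 0.43). Otc, which makes citrulline, was at 322 and 247 FPKM and did not pass. Of 15 tested members of this list 6 rose and 1 fell, with a median log2 of 0.74.

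Sulphur amino acid and serine enzymes had 9 of 36 higher and none lower at q under 0.05 by Cuffdiff. Cbs and Cth, the consecutive steps of transsulphuration from homocysteine to cysteine, rose from 197 to 802 FPKM (2.03 ± 0.50) and from 124 to 1026 FPKM (3.04 ± 0.46). Csad, which opens the route from cysteine sulphinate to taurine, rose from 21.5 to 128 FPKM (2.57 ± 0.45). Cdo1, the dioxygenase that makes that sulphinate, was at 794 and 824 FPKM. Bhmt, which remethylates homocysteine, was at 1236 and 1077 FPKM, and neither passed. Aromatic amino acid and histidine breakdown had 6 of 15 higher and a median of 0.77; Tat, the first step of tyrosine breakdown, went from 279 to 1263 FPKM (2.18 ± 0.50) and Hal, the histidine ammonia-lyase, from 40.9 to 113 FPKM (1.47 ± 0.44). The list of branched-chain, lysine, threonine and proline enzymes, by contrast, had 3 higher and 1 lower of 33, with a median of 0.12. Its largest increases were Agxt2l1 (now Etnppl), a phosphoethanolamine lyase, from 18.5 to 199 FPKM (3.42 ± 0.44), and Agxt, the peroxisomal alanine-glyoxylate aminotransferase, from 135 to 1076 FPKM (2.99 ± 0.42).

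A pair of genes of the amino acid stress response rose without the rest of their list. Asns, the asparagine synthetase, went from 2.24 to 20 FPKM (3.15 ± 0.54) and Atf5, a transcription factor of the same response, from 103 to 501 FPKM (2.28 ± 0.43). Chac1, a glutathione-degrading enzyme also induced by ATF4, fell from 3.24 to 0.53 FPKM (-2.61 ± 0.71) (the authors' deposited table gives q = 0.00346). Hspa5, the main chaperone of the endoplasmic reticulum, was at 337 and 225 FPKM and did not pass, and 6 of the 32 tested members of the list had a log2 above 0.

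**Figure D2:**
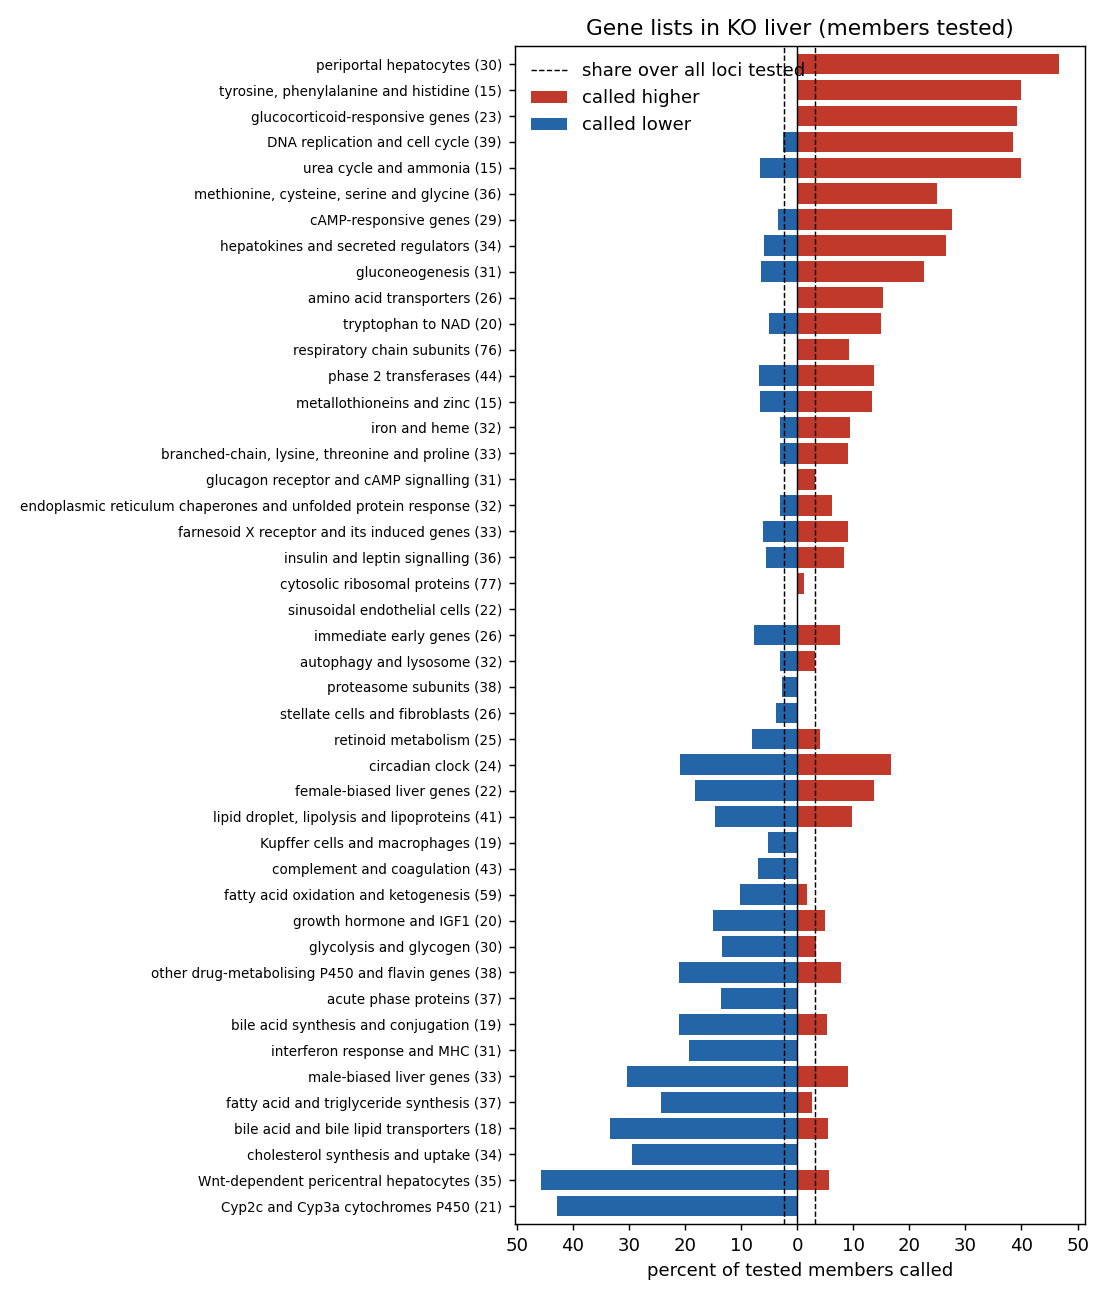
Percent of the tested members of 45 gene lists that were called higher (red, to the right) or lower (blue, to the left) in KO liver under IUB288, for lists with at least 15 tested members, whose number stands in parentheses. The dashed lines mark the shares over all loci tested, 3.13% higher and 2.37% lower, and are not matched to the expression level of each list. Periportal genes stand at the top with 14 of 30 higher and the Cyp2c and Cyp3a genes at the foot with 9 of 21 lower.

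Among the listed genes of nicotinamide and NAD metabolism, Nnmt changed most, and did so at high expression. Nnmt, which methylates nicotinamide and so removes it from NAD salvage, rose from 56 to 751 FPKM (3.75 ± 0.39). Nampt, the rate-limiting enzyme of that salvage, fell from 9.4 to 4.68 FPKM (the authors' deposited table gives q = 0.00493). Acmsd, which diverts the kynurenine route away from NAD, rose from 8.72 to 44 FPKM (2.33 ± 0.41). Tdo2, the abundant first enzyme of that route, was at 587 and 665 FPKM and did not pass. Haao, a later enzyme of the route, was at 307 and 313 FPKM and did not pass either. In the list as a whole 3 of 20 were higher and 1 was lower.

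Both liver metallothioneins, small cysteine-rich proteins that bind zinc and copper, rose. Mt1 (chr8:94179089-94180327) went from 17.8 to 133 FPKM (2.91 ± 0.43) and Mt2 (chr8:94172618-94173567) from 3.34 to 52.9 FPKM (3.98 ± 0.68). Of the 15 tested members of the metallothionein and zinc list, these 2 rose and 1 fell. Slc39a14, a hepatic importer of zinc and iron, was at 39.6 and 44.3 FPKM and did not pass. The metallothioneins are also known glucocorticoid targets, and 9 of the 23 tested genes of that list were higher with none lower at q under 0.05 by Cuffdiff. Sgk1, a kinase of that list, rose from 5.03 to 41.9 FPKM (3.06 ± 0.41). Tsc22d3 and Klf9, which glucocorticoids induce in many tissues, were at 32.9 and 38.1 FPKM and at 24.3 and 22.3 FPKM and did not pass. Mt1, Mt2, Pck1, Tat and Sgk1 belong to several of these lists, so the counts are not independent of each other.

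Of 32 tested genes of iron and heme, 3 rose, 1 fell and 28 were not called (median -0.04). Hamp, the hormone hepcidin, rose from 327 to 616 FPKM (the authors' deposited table gives q = 0.0315), and its duplicate Hamp2 from 133 to 337 FPKM (1.34 ± 0.43). The 2 genes are close in sequence, and reads they share may have been split between them. Hfe, which takes part in hepcidin induction, rose from 21.8 to 45.7 FPKM (1.07 ± 0.36). Slc40a1, the iron exporter ferroportin, fell from 30.5 to 15.5 FPKM (the authors' deposited table gives q = 0.00346); it was also the 1 macrophage marker that fell.

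Secreted regulators had 9 higher and 2 lower of 34 tested. Fst, follistatin, an antagonist of activins that the liver secretes in response to glucagon, rose from 1.76 to 16.6 FPKM (3.24 ± 0.50). Inhbe, which encodes the activin E subunit, fell from 37.1 to 9.95 FPKM (-1.90 ± 0.38). Enho, the precursor of adropin, rose from 8.64 to 40.3 FPKM (2.22 ± 0.40). Igfbp1, an IGF-binding protein held low by insulin, rose from 11.2 to 39.7 FPKM (1.82 ± 0.40). Gm6484 (Angptl8), an inhibitor of lipoprotein lipase that feeding induces, rose from 66.9 to 185 FPKM (the authors' deposited table gives q = 0.0185). Fgf21, the fasting-induced hormone in the title of the study, was at 3.64 FPKM under vehicle and 5.7 FPKM under IUB288 (0.65 ± 0.57) and did not pass (the authors' deposited table gives q = 0.507).

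Of 20 tested genes of growth hormone and IGF1 signalling, 3 fell and 1 rose (median log2 -0.26). Socs2, a feedback inhibitor induced through STAT5, fell from 5.82 to 1.27 FPKM (-2.19 ± 0.53), and Cish, another such inhibitor, from 11.4 to 3.31 FPKM (-1.78 ± 0.48). Bcl6, given above, was the other lower gene, and Igfbp1 was the 1 that rose. The receptor Ghr was at 282 and 188 FPKM and did not pass. Genes whose level in liver depends on the growth hormone pattern of the sexes were changed in both directions: 10 of 33 male-biased genes fell and 3 rose, and 4 of 22 female-biased genes fell and 3 rose. The sources used here do not give the sex of the mice.

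**Figure D3:**
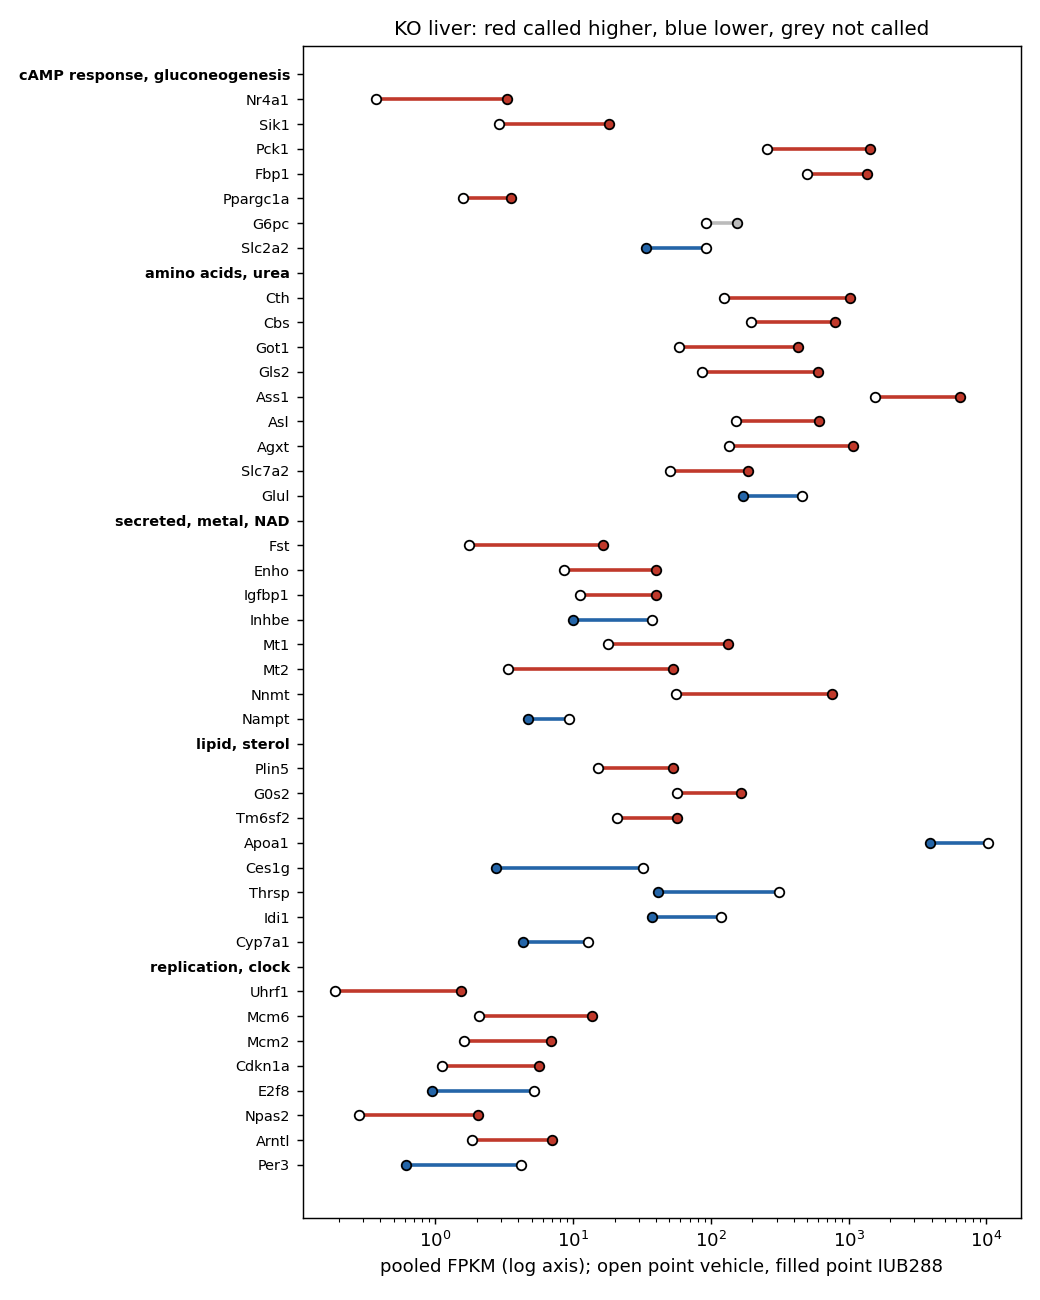
Pooled FPKM of 40 genes in KO liver on a log axis, open points for vehicle and filled points for IUB288, grouped by role; lines and filled points are red for genes called higher, blue for genes called lower and grey for G6pc, which was not called. Amino acid genes other than Glul move to the right, while Thrsp, Ces1g, Idi1 and Per3 move to the left.

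Lipid genes changed in both directions. Fatty acid and triglyceride synthesis had 9 of 37 lower and 1 higher (median -0.41): Thrsp, a lipogenic regulator that carbohydrate feeding induces, fell from 311 to 41.4 FPKM (-2.91 ± 0.40), and Pnpla3, a lipid droplet lipase controlled by SREBP-1c, from 6.49 to 0.667 FPKM (-3.28 ± 0.59). Scd1, the stearoyl-CoA desaturase, was at 1512 and 976 FPKM and did not pass. Plin5, a perilipin of oxidative tissues, rose from 15.2 to 53.4 FPKM (1.82 ± 0.38) and G0s2, an inhibitor of the triglyceride lipase ATGL, from 56.4 to 164 FPKM (1.54 ± 0.37). Tm6sf2, which takes part in lipidation of very-low-density lipoprotein, rose from 20.9 to 57.1 FPKM (1.45 ± 0.36). Apoa1, the main protein of high-density lipoprotein, fell from 10234 to 3910 FPKM (-1.39 ± 0.61) (the authors' deposited table gives q = 0.0276). Ces1g, a carboxylesterase, fell from 32.4 to 2.75 FPKM (-3.56 ± 0.49). The list of lipid droplet, lipolysis and lipoprotein genes had 4 higher and 6 lower of 41, with a median of -0.05. Fatty acid oxidation had 1 higher and 6 lower of 59 (median -0.15).

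Cholesterol synthesis was lower at several consecutive steps, with 10 of 34 members down and none up at q under 0.05 by Cuffdiff (median -0.67). Idi1, the isopentenyl diphosphate isomerase, fell from 119 to 37.4 FPKM (-1.67 ± 0.38), and Cyp51, the lanosterol demethylase, from 52.4 to 17.7 FPKM (-1.56 ± 0.37). Nsdhl, which acts after Cyp51, fell from 49.9 to 17.8 FPKM (-1.49 ± 0.37). In WT the list had 2 lower of 34 and a median of -0.18, and the difference between KO and WT did not pass for any of the genes of this list named here; for Idi1 it was -1.50 ± 0.58.

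Among bile acid genes, Cyp7a1, the rate-limiting enzyme of synthesis, fell from 12.8 to 4.35 FPKM (-1.56 ± 0.38) and Cyp2c70, which makes muricholic acids in mice, from 252 to 59.1 FPKM (-2.09 ± 0.39). Cyp8b1, the sterol hydroxylase that makes cholic acid, was at 244 and 264 FPKM. Cyp39a1, an oxysterol hydroxylase, rose from 5.75 to 15.4 FPKM (1.42 ± 0.42). The carriers that fell included Slco1b2 from 346 to 125 FPKM (-1.47 ± 0.42), Slc10a2 from 7.89 to 3.23 FPKM (-1.29 ± 0.39) and Abcc3 from 75.8 to 27.8 FPKM (-1.45 ± 0.47). Abcb11, the canalicular bile salt pump that Fxr induces, was at 84.5 and 57.1 FPKM, and Nr0b2, the repressor SHP, at 29 and 34.8 FPKM; neither passed. Transporters had 6 lower and 1 higher of 18, and synthesis genes 4 lower and 1 higher of 19.

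A deep fall at high expression was seen in the Cyp2c cluster on chromosome 19, a tandem array of drug-metabolising cytochromes P450. Cyp2c50 went from 511 to 17.9 FPKM (-4.84 ± 0.45), Cyp2c54 from 135 to 3.01 FPKM (-5.49 ± 0.45) and Cyp2c37 from 118 to 6 FPKM (-4.30 ± 0.40). These 3 genes are neighbours between chr19:39992424 and 40113955. Cyp2c70, next to them, fell as given above, and Cyp2c29, near the other end of the array, fell from 651 to 186 FPKM (-1.80 ± 0.42). None of the tested genes between these passed. Cyp2c67 was at 118 and 101 FPKM and Cyp2c68 at 34.2 and 36.1 FPKM. Cyp2c39 was lower without passing, at 26.4 and 15.9 FPKM, as was Cyp2c38, at 18.9 and 11.7 FPKM. Cyp2c40 was at 0.624 and 1.26 FPKM and Cyp2c69 at 0.593 and 0.772 FPKM. Paralogues in this array are similar in sequence, so shared reads may have been split among them. Across the Cyp2c and Cyp3a list 9 of 21 fell and none rose at q under 0.05 by Cuffdiff (2 at an unadjusted p under 0.05). Nr1i3, the receptor CAR that drives several of these genes, fell from 48.2 to 13.4 FPKM (the authors' deposited table gives q = 0.00761).

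**Figure D4:**
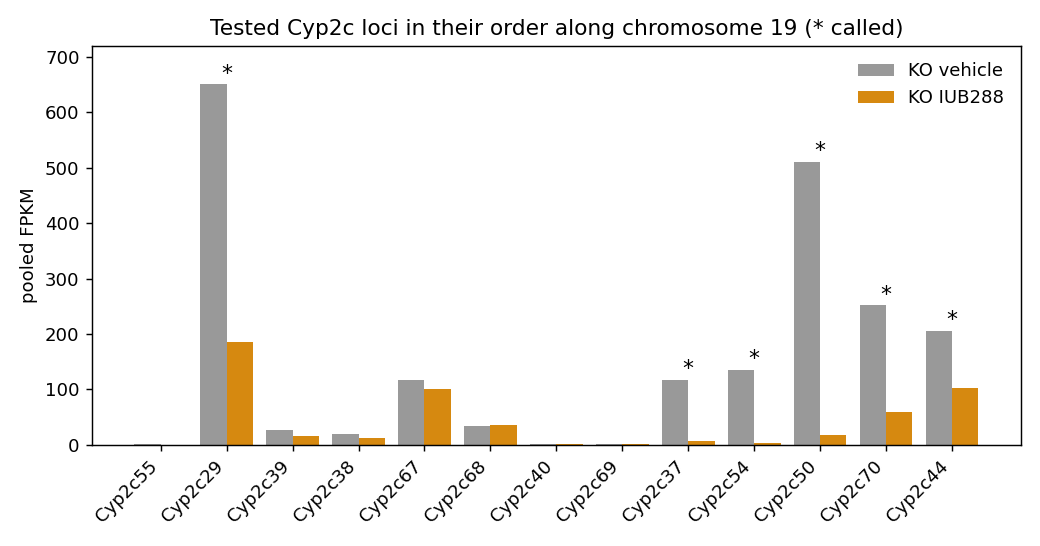
Pooled FPKM of the 13 tested Cyp2c loci in KO liver, in their order along chromosome 19, grey bars for vehicle and orange bars for IUB288; stars mark called loci. Cyp2c37, Cyp2c54 and Cyp2c50 stand next to each other and fell to 6, 3.01 and 17.9 FPKM, while Cyp2c67 and Cyp2c68 kept close to their vehicle level.

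Some other P450 genes fell as well, among them Cyp2e1, the ethanol-oxidising enzyme, from 5186 to 1305 FPKM (-1.99 ± 0.61) and Cyp2b9 from 17.7 to 2.46 FPKM (-2.85 ± 0.56). Against that direction, Cyp17a1, a steroid hydroxylase, rose from 29.1 to 281 FPKM (3.27 ± 0.51). Conjugating enzymes were mixed, with 6 higher and 3 lower of 44. Gstp1, a glutathione transferase, rose from 283 to 1200 FPKM (2.08 ± 0.40) and Sult1a1, a phenol sulphotransferase, from 228 to 710 FPKM (1.64 ± 0.41), while Sult5a1 fell from 7.63 to 1.78 FPKM (-2.10 ± 0.60). Seen by position in the lobule, 14 of 30 periportal genes rose and none fell at q under 0.05 by Cuffdiff, with 2 lower at an unadjusted p under 0.05 (median 0.81), and 16 of 35 pericentral genes fell and 2 rose (median -0.81). Many members of these zonation lists are the amino acid and P450 genes named above.

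Part of the DNA replication genes were higher, at low levels. Mcm6, a subunit of the replicative helicase, rose from 2.09 to 13.8 FPKM (2.72 ± 0.43), Mcm5 from 0.764 to 4.52 FPKM (2.56 ± 0.52) and Mcm2 from 1.6 to 6.86 FPKM (2.10 ± 0.45). Uhrf1, which carries DNA methylation through replication, rose from 0.188 to 1.54 FPKM (3.03 ± 0.72). Cdkn1a, the p21 inhibitor of the cell cycle, rose too, from 1.13 to 5.62 FPKM (2.32 ± 0.57), and E2f8, a repressor of E2F targets, fell from 5.17 to 0.954 FPKM (-2.44 ± 0.68). Mcm10 was at 54 and 62.4 FPKM and did not pass. Pcna, listed at a locus shared with Tmem230, was at 24.1 and 31.9 FPKM and did not pass either. Of 39 tested members 15 rose and 1 fell, with 34 above 0 and a median of 1.13. In WT 8 of 43 rose.

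Of 24 tested clock genes 4 rose, 5 fell and 15 were not called. Npas2 and Arntl, which are activators, rose from 0.28 to 2.04 FPKM (2.87 ± 0.67) and from 1.85 to 7.05 FPKM (1.93 ± 0.44). Per3, a repressor, fell from 4.19 to 0.608 FPKM (-2.78 ± 0.45), and Per2 from 5.46 to 2.26 FPKM (the authors' deposited table gives q = 0.00493). Dbp, an output gene, was at 34.3 and 8.46 FPKM with a wide error (-2.02 ± 1.05) and did not pass. Nr1d1, the repressor of Arntl, was at 49 and 47.7 FPKM and did not pass. The hour at which each mouse was killed is likewise not known here, and its part in these values was not tested.

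Of 31 tested genes of the interferon response and MHC list, 6 fell and 25 were not called. The class II genes H2-Eb1 and H2-Aa went from 13.8 to 6 FPKM and from 24.8 to 12.7 FPKM, with q = 0.00493 and 0.0132 in the authors' deposited table, and Cd74, the invariant chain, from 66.2 to 37.7 FPKM with q = 0.0283, also from the authors' deposited table. Iigp1, an interferon-induced GTPase, fell from 57.7 to 22.1 FPKM (-1.39 ± 0.38). None of the 31 rose at q under 0.05 by Cuffdiff (1 at an unadjusted p under 0.05), and the class I gene H2-K1 was at 588 and 512 FPKM and did not pass. Class II genes mark antigen-presenting cells, and beside this fall the summed level of 19 macrophage markers was 218 FPKM under vehicle and 175 FPKM under IUB288, with 2 of 19 above a log2 of 0 and 1 called lower. In whole liver, fewer cells of a type and less RNA per cell cannot be told apart.

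Markers of the other cell types had few calls. None of 22 sinusoidal endothelial markers was called at q under 0.05 by Cuffdiff (2 lower at an unadjusted p under 0.05), and their sum was 166 FPKM under vehicle and 149 FPKM under IUB288. For 26 stellate and fibroblast markers the sums were 391 and 384 FPKM, of which Fn1, not called, made up 220 and 240 FPKM. Only 7 of the 26 had a log2 above 0 (median -0.26), and 3 were lower at an unadjusted p under 0.05. The 1 call was Col3a1, a fibrillar collagen, from 4.31 to 1.66 FPKM (-1.38 ± 0.41). Lymphocyte markers summed to 4.53 and 4.67 FPKM. The 3 tested neutrophil markers summed to 1.14 FPKM under vehicle and 3.46 FPKM under IUB288, all with a log2 above 0 (median 1.97), and none was called at q under 0.05 by Cuffdiff (1 at an unadjusted p under 0.05). The 2 tested adipocyte markers, Fabp4 and Car3, summed to 2831 and 1798 FPKM (median -0.78), and neither was called (1 lower at an unadjusted p under 0.05); Car3, which hepatocytes also express, made up nearly all of that sum. Of 7 cholangiocyte markers, Krt23, a keratin, fell from 2.79 to 0.854 FPKM (the authors' deposited table gives q = 0.0233). Of the 2 pancreatic acinar markers tested, Cela1 fell from 58.1 to 23.8 FPKM (-1.29 ± 0.41) and Cela2a was at 0.513 and 0.516 FPKM. The 11 tested hepatocyte markers summed to 29154 and 25373 FPKM, with 1 higher, 1 lower and a median log2 of -0.02. The lower one was Apoa1, which went from 10234 to 3910 FPKM and weighs heavily in that sum. Alb, the defining hepatocyte transcript, was not tested in KO, with status LOWDATA in the table.

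Subunits of the respiratory chain and of the cytosolic ribosome mostly had a log2 above 0, with few calls. Of 76 respiratory subunits 7 rose and none fell at q under 0.05 by Cuffdiff, 74 had a log2 above 0, and the median was 0.45. Cox7a1, a muscle-type subunit of cytochrome oxidase, had the largest log2 of the 7 called, going from 2.56 to 15.3 FPKM (2.58 ± 0.79) (the authors' deposited table gives q = 0.0132). Of 77 ribosomal proteins, 1 rose (Rpl13a, from 186 to 420 FPKM) and 76 had a log2 above 0, with a median of 0.35. These are abundant transcripts, and their medians lie beside the 0.23 given above for loci between 100 and 1000 FPKM.

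Named by size alone, the largest increases included genes outside these lists, and Lepr, a member of the insulin and leptin signalling list. Tuba8, an alpha tubulin, Gucy2c, the guanylin receptor, Slc13a2, a dicarboxylate carrier of kidney, and Lepr, the leptin receptor, went from 0.222 to 51.8 FPKM, from 0.0817 to 2.46 FPKM, from 0.208 to 4.82 FPKM and from 0.237 to 8.4 FPKM. Nptx1, a neuronal pentraxin, and Slc30a3, a zinc transporter of synaptic vesicles, went from 0.147 to 2.86 FPKM and from 0.0976 to 1.36 FPKM. For Tuba8 and Slc30a3 q was 0.00346 and 0.0432 in the authors' deposited table. Folds from vehicle levels this low are less certain than those of abundant genes, as their errors show (7.87 ± 0.85 for Tuba8 against 3.75 ± 0.39 for Nnmt). The largest decreases included Serpina7, the thyroxine-binding globulin, Ces4a, a carboxylesterase, and Rarres1, a retinoid-responsive gene, with log2 values of -4.23, -4.04 and -3.36; the authors' deposited table gives q = 0.00346 for Ces4a.

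Of the 761 calls 84 were at loci without a symbol, and 14 of these lay within 10000 bases of a called gene, 13 in its direction. Among those listed at 0 under vehicle, 4 lay beside genes described above that rose: chr3:130638103-130638583 by Agxt2l1 at 0.82 FPKM, chr9:48588049-48588486 by Nnmt at 1.1 FPKM, chr17:31862204-31862929 by Sik1 at 1.05 FPKM and chr8:40852839-40862318 by Slc7a2 at 0.894 FPKM under IUB288.

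The KO effect overlapped that in WT. Of the 761 loci called in KO, 511 were also called among 1117 in WT, which is 67.1% of the KO calls and 45.7% of the WT calls, and 507 of the 511 had the same sign. In WT 7.37% of 15164 tested loci were called, 3.96% higher and 3.4% lower. Of the 250 called in KO alone, 235 were tested in WT and 219 had the same sign there; those higher in KO had a median log2 of 1.31 in KO and 0.71 in WT. A test of the difference itself, over 13521 loci tested in both, passed at 14 (0.104%), 8 with the KO effect above that in WT and 6 below. A gene called in KO alone is therefore not shown to respond in KO alone.

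The acute phase genes Saa1 and Saa2, serum amyloid A genes on chromosome 7, had opposite effects. In KO they fell from 82.1 to 20.1 FPKM (-2.03 ± 0.41) and from 36.4 to 9.05 FPKM (-2.01 ± 0.48), and in WT they rose by a log2 of 2.18 and 3.16. The differences of KO and WT were -4.21 ± 0.67 (adjusted p = 1.08e-06) and -5.17 ± 0.71 (adjusted p = 1.58e-09), from the normal test with Benjamini-Hochberg adjustment over all loci tested in both of the authors' deposited tables. Their neighbour Saa4, a constitutive member, fell in both, with log2 values of -1.57 in KO and -1.37 in WT. The pair are near-identical in sequence, so reads they share may have been split. Lcn2, the siderophore-binding lipocalin, was at 13.5 and 13.6 FPKM in KO and had a log2 of 3.91 in WT. Over the acute phase list 5 of 37 fell and none rose in KO at q under 0.05 by Cuffdiff (6 at an unadjusted p under 0.05), and 3 fell and 10 rose in WT. Hpx, hemopexin, was at 1852 and 3509 FPKM in KO and did not pass.

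In the other direction the KO effect lay above that in WT for Cyp2a4, a female-biased steroid hydroxylase, which rose from 1.09 to 47.3 FPKM in KO (5.44 ± 0.63) and had a log2 of 1.76 in WT. Cyp2a5 is close to Cyp2a4 in sequence and fell from 246 to 47.3 FPKM, so reads of the 2 may have been split. Cyp26b1, which degrades retinoic acid, rose from 0.53 to 2.1 FPKM in KO (1.99 ± 0.53) and had a log2 of -1.01 in WT. Egr1, an immediate early factor, was at 2 and 3.92 FPKM in KO without passing and fell in WT (-2.24). Rgs16, a brake on G protein signalling, fell in both. It went from 22.2 to 1.4 FPKM in KO (log2 -3.99) and from 110 to 0.686 FPKM in WT (log2 -7.33).

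**Figure D5:**
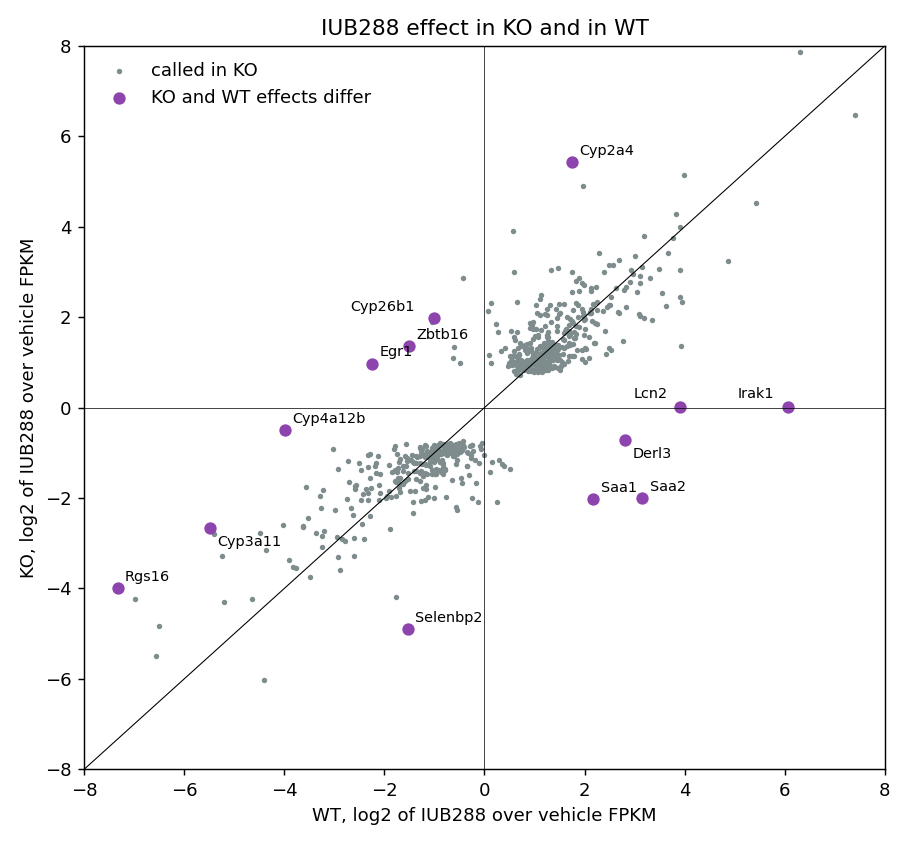
Log2 of IUB288 over vehicle FPKM in WT on the x axis and in KO on the y axis, for 653 named loci called in KO and tested in WT (grey points), with the named loci whose effects differed between KO and WT in purple. The line marks equal effects; Saa1 and Saa2 lie at the lower right, and Cyp2a4 lies well above the line.

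The authors' test and a normal p from their test statistic did not call the same loci. With the normal p 348 loci passed, 328 of them among the 761. Among genes described above, the calls that ended were those of Ppargc1a, Pfkfb2, Gbe1, Pdk1, Slc3a1, Ass1, Arg1, Nampt, Hamp, Hamp2, Hfe, Slc40a1, Gm6484, Apoa1, Nr1i3, Abcc3, Per2, H2-Eb1, H2-Aa, Cd74, Cela1, Krt23 and Rpl13a.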

How the data were processed

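Liver RNA was extracted with TRIzol and sequenced from TruSeq RNA libraries, per the labels' protocols. Per the submitters' processing notes, Cufflinks 2.2.1 and Cuffdiff were used, along with TopHat2 2.0.12 and Bowtie2 2.2.3; mm10 is among the builds they name. bcl2fastq 1.8.4 and Trim Galore 0.4.0 are also listed there. The authors deposited FPKM values pooled over 2 mice per group, log2 fold changes, a test statistic (used here as a score), p-values and q-values, per the file headers. The sources used here give neither depth nor use of strand, and overlapping genes cannot be told apart by strand. No per-sample columns were left unmapped (0).

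From these values log2 ratios, implied standard errors (fold change over statistic), list counts and medians, and a normal test of the KO and WT difference were computed with scipy 1.17.1 and pandas 2.3.3 in Python 3.11.15. The test of the difference was tried on simulated data. Loci were grouped into 53 gene lists; a symbol at several loci was taken at the one with the highest FPKM. Genes named are set anchors, the 15 largest called increases and decreases with at least 1 FPKM in a group, up to 6 called and 3 uncalled members per list, and 5 differences each way. Some results are not reported here. Members and lists were chosen with earlier results of these data known. Whether the 2 mice of a group differ cannot be seen, and q-values rest on the authors' variance model.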

Additional observations from a re-analysis of the deposited data

Results flagged for a closer look

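The effect of IUB288 differed between KO and WT at 14 loci, by the normal test of the difference with Benjamini-Hochberg adjustment over 13521 loci. Computed from the authors' deposited tables, the KO minus WT difference in log2 was -6.06 for Irak1 (adjusted p = 2.79e-34), -5.17 for Saa2 (adjusted p = 1.58e-09), -4.21 for Saa1 (adjusted p = 1.08e-06), -3.91 for Lcn2 (adjusted p = 5.93e-05), -3.52 for Derl3 (adjusted p = 0.0325) and -3.36 for Selenbp2 (adjusted p = 0.00198). Computed in the same way from the authors' deposited tables, it was 3.68 for Cyp2a4 (adjusted p = 0.00792), 3.48 for Cyp4a12b (adjusted p = 0.0325), 3.34 for Rgs16 (adjusted p = 0.0268), 3.21 for Egr1 (adjusted p = 0.00527), 3.002 for Cyp26b1 (adjusted p = 0.0325), 2.87 for Zbtb16 (adjusted p = 0.0316) and 2.82 for Cyp3a11 (adjusted p = 0.0435).

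Lcn2, Derl3, Cyp4a12b, Egr1 and Irak1 did not pass in KO, and their difference rests on a change in WT. Irak1, a kinase of interleukin-1 signalling, was at 14.7 and 14.8 FPKM in KO. In WT it was at 14.4 FPKM under vehicle and 961 FPKM under IUB288 (6.06 ± 0.29). That WT error is smaller than the 0.37 of the unchanged KO value, and the source of so large a WT value was not tested. Derl3, a factor of protein export from the endoplasmic reticulum, had a log2 of -0.71 ± 0.55 in KO and 2.81 in WT. Cyp4a12b, a male-biased fatty acid hydroxylase, was at 6.92 and 4.88 FPKM in KO and had a log2 of -3.98 in WT; its paralogue Cyp4a12a fell in both, with log2 values of -1.76 and -3.56. Selenbp2, a selenium-binding protein of liver, fell from 155 to 5.2 FPKM in KO (-4.90 ± 0.46). In WT it fell from 9.07 to 3.13 FPKM (-1.53), so its vehicle levels lay further apart than its IUB288 levels. Cyp3a11, a drug-metabolising cytochrome P450, fell from 749 to 118 FPKM in KO (-2.67 ± 0.46) and had a log2 of -5.49 in WT. Another locus that passed, mt-Tl2,mt-Ts2, with a difference of 0.87, had a test statistic of 2551.42 beside a p of 0.441 in the authors' deposited table, 2 values that contradict each other.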

How the results depend on the processing

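The counts of 433 loci higher and 328 lower fell to 284 and 205 at q under 0.01 and to 207 and 141 with a normal p from the test statistic; with that p the called members of any list went from 219 to 117. The cause of the gap between the deposited p and the normal p was not tested. A 2-fold minimum (349 and 256) and a 1 FPKM minimum with q as deposited (406 and 312) or adjusted again (418 and 326) kept the counts within 1.5 times. Centring (433 and 328) left q unchanged and took off a median of only -0.003, so these counts could barely move. With the normal p 64 named genes lost a call. The 337 named genes include uncalled ones, which had no call to lose, and over all loci 433 of the 761 calls ended. A pseudocount cannot change the sign of a log2, so that check says nothing about the signs of named genes. No named gene changed sign under centring. The list medians moved by less than a typical error except for the 3 neutrophil markers, at 1.97 and 0.67 with a pseudocount of 1.

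The difference of KO and WT passed at 14 loci under the 1 FPKM minimum, centring and an adjusted p under 0.1, and at 11 with errors from the deposited p, 6 of them shared: Cyp26b1, Derl3, Egr1, Saa1, Saa2 and Zbtb16. The deposited p stops at 5e-05, which by construction widens the error of the largest changes. Leaving out each mouse was not run, as the values are pooled. No paired analysis was possible because the tables hold 1 pooled value per group and the labels pair no mice. Depth is unknown, so no floor can be given for genes listed at 0.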

Other observations

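Other gene groups changed in some members only, set beside the 5.51% of all tested loci that were called. Immediate early genes had 2 higher and 2 lower of 26; Jun, a subunit of AP-1, fell from 5.93 to 2.02 FPKM (-1.55 ± 0.46), and Cyr61, a matricellular protein, from 5.8 to 1.82 FPKM with q = 0.00493 in the authors' deposited table. Complement and coagulation genes had 3 lower of 43, among them F13b, a subunit of coagulation factor XIII, from 70.7 to 34.5 FPKM (-1.03 ± 0.36). Autophagy and lysosome genes had 1 higher and 1 lower of 32. Of these, Wipi1, which binds phosphoinositides on the forming autophagosome, fell from 6.93 to 2.63 FPKM with q = 0.00346 in the authors' deposited table. Retinoid genes had 1 higher and 2 lower of 25, and 1 of 38 proteasome subunits was lower, the interferon-induced Psmb9, with q = 0.00628 in the authors' deposited table. With a normal p from the test statistic the calls of F13b, Wipi1, Psmb9 and, in the next paragraph, Vldlr, Fetub and Ppara ended.

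Genes known to be induced by Fxr had 3 higher and 2 lower of 33 in KO, and 5 higher and 2 lower of 33 in WT. Sdc1, a heparan sulphate proteoglycan of hepatocytes, rose from 55.1 to 245 FPKM in KO (2.15 ± 0.39) and had a log2 of 2.24 in WT. Vldlr, a lipoprotein receptor, rose from 0.522 to 1.55 FPKM (1.57 ± 0.50) and had a log2 of 1.70 in WT. The 2 that fell in KO were Fetub, from 247 to 136 FPKM, and Ppara, from 37.7 to 21.1 FPKM. For them q was 0.0322 and 0.0463 in the authors' deposited table.

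Zbtb16, a zinc finger factor induced by glucocorticoids, was chosen here after its values were seen, because it was called in both genotypes with opposite signs. It rose from 1.97 to 5.05 FPKM in KO (1.36 ± 0.42) and fell in WT (-1.50 ± 0.53), a difference of 2.87 ± 0.68 (adjusted p = 0.0316 by the normal test over all loci of the authors' deposited tables).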
